A study of Mus musculus with 30 samples.

Results

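The 9 genes described here encode enzymes of mitochondrial fatty acid oxidation and of the fuel choice that goes with it: the carnitine palmitoyltransferases Cpt1a, Cpt1b, Cpt1c and Cpt2, the acyl-CoA dehydrogenases Acadm, Acadl and Acadvl, the trifunctional protein subunit Hadha, and the pyruvate dehydrogenase kinase Pdk4. They were chosen by symbol, and 9 of 9 were found among the 48709 genes of the deposited count tables. None of them is an enzyme of ketone body synthesis, which is read here from a separate list of 7 genes. RNA had been sequenced from brain, kidney, liver, quadriceps femoris muscle and spleen of adult C57BL/6 mice. The mice were either wild-type controls (WT) or heterozygous for loss of Ctcf (Ctcf+/-), with 3 libraries of each genotype in each tissue and 30 libraries in all, from 3 mice of each genotype per the series' design text. The Ctcf protein binds DNA through zinc fingers and helps to fold chromatin into loops and domains. Sex, exact age, feeding state, hour of collection and the way the Ctcf allele was disrupted are not given in the sources used here, and no treatment is named for either genotype.

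Long-chain fatty acids enter mitochondria as carnitine esters. CPT1 on the outer membrane makes the ester and CPT2 on the inner membrane reverses it, so that CPT1 sets the rate of entry. The acyl-CoA dehydrogenases then take the first step of each oxidation round, with VLCAD (Acadvl), LCAD (Acadl) and MCAD (Acadm) acting on ever shorter chains, and the trifunctional protein carries out the later steps on long chains. In the liver the acetyl-CoA so made feeds ketone body synthesis. PDK4 phosphorylates and shuts down pyruvate dehydrogenase, which spares glucose while fat is burnt. Fasting is known to raise transcripts of many of these enzymes through the fatty acid sensor PPARα, with Pdk4 among the most responsive, so that their spread between mice is read here beside other genes known to follow feeding state.

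Each library held between 49.8 M and 131.6 M fragments counted to genes, and levels are given as counts per 1 M counts (CPM) after scaling all 30 libraries together by the trimmed mean of M-values (TMM), as mean ± SD with n = 3 unless another n is given. Ctcf itself checked the genotype labels. It stood at 49.3 ± 1.21 CPM in WT and 32.4 ± 2.35 CPM in Ctcf+/- brain, with log2 fold changes of -0.69 there and, in the order kidney, liver, muscle, spleen, of -0.70, -0.66, -0.57 and -0.62, with no overlap between genotypes in any of the 5 tissues. By edgeR's quasi-likelihood test the adjusted p was 0.0259 for brain and 0.107, 0.543, 0.250 and 0.914 for the others in that order, so that of these 5 effects the one in brain passed, and that call was lost on leaving out any 1 of the 6 brain libraries (adjusted p between 0.1005 and 0.292). With the replicate number as a block kidney passed too (adjusted p = 0.0440). DESeq2 passed brain, kidney (adjusted p = 4.29e-07) and muscle (adjusted p = 0.00430), and the fit of all 30 libraries passed spleen (adjusted p = 0.0219) and not brain. Marker genes matched the tissue labels: 7 hepatocyte markers summed to 209399 CPM or more in every liver library, 7 fast-fibre markers to 213543 CPM or more in every muscle library, and the neuron, proximal tubule and B cell lists were highest in brain, kidney and spleen. Some libraries carried RNA of other tissues. Both kidney libraries numbered 3 held 120 and 152 CPM of 5 skeletal muscle markers, against 0.249 CPM or less in the other 4 kidney libraries, and WT muscle library 2 held 100.3 CPM of proximal tubule markers, against 14.2 CPM or less in the other 5 muscle libraries.

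The genes lie on 9 chromosomes of GRCm38, at the positions given in the count tables. Cpt1a (ENSMUSG00000024900) spans chr19:3323301-3385732 on the plus strand. The others are on minus strands: Cpt1b (ENSMUSG00000078937) at chr15:89416405-89425863, Cpt1c (ENSMUSG00000007783) at chr7:44959372-44974851, Cpt2 (ENSMUSG00000028607) at chr4:107903981-107923610, Acadm (ENSMUSG00000062908) at chr3:153922357-153944632, Acadl (ENSMUSG00000026003) at chr1:66830839-66863277, Acadvl (ENSMUSG00000018574) at chr11:70010183-70015411, Hadha (ENSMUSG00000025745) at chr5:30118304-30155162 and Pdk4 (ENSMUSG00000019577) at chr6:5483351-5496309. Where exons of several genes overlap, fragments in the overlap were not counted to any of them, and strand was ignored. For Cpt1b this covers 2744 of its 3372 exon bases (81.4%), which are shared with Chkb, a choline kinase gene. For Acadvl it covers 1151 of 2686 exon bases (42.9%), shared with Dvl2. Cpt1c shares 6.53% and Hadha 0.859% of exon length with other genes, and the remaining 5 share none. Levels of Cpt1b and Acadvl are therefore too low by an unknown factor, and no level of Cpt1b is compared here with that of another gene.

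The bases just before the start sites are shown for 4 of the 7 genes that were lowest in liver library 3 of both genotypes. These are the 4 whose window held a match to a motif searched for. The sequences are RefSeq's on GRCm38.p6, in the direction of the gene, from 150 to 41 bases before the annotated start, and capitals mark a motif. They lie at chr19:3323151-3323260 on the plus strand (Cpt1a) and, on minus strands, at chr11:70015469-70015578 (Acadvl), chr4:107923630-107923739 (Cpt2) and chr6:5496319-5496428 (Pdk4). For Cpt1a, Cpt2 and Pdk4 the bases just after the start were found in a GENCODE transcript of the gene. For Acadvl they were not, so the place of its window and motif relative to a start is less certain.
Cpt1a: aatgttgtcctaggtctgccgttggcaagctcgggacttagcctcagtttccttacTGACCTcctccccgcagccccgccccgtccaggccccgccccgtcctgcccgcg
Acadvl: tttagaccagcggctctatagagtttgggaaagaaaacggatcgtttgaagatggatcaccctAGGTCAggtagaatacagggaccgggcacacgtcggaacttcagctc
Cpt2: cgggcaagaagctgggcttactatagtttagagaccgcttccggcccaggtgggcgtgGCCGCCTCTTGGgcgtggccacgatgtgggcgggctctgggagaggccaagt
Pdk4: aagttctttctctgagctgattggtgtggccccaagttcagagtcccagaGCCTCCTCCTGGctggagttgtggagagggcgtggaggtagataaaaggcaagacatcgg
In Cpt1a and Acadvl the capitals are AGGTCA, the core site bound by PPARα and other nuclear receptors, which reads on the opposite strand in Cpt1a. In Cpt2 and Pdk4 they are the loose core of the CTCF motif (CCA, any 2 bases, AG, any 2 bases, GGC), on the opposite strand. RefSeq promoters from 250 bases before to 50 after the start were at hand for 8 of the 9 genes, all but Cpt1b. Searched on both strands of them, AGGTCA was in 4 of 8, adding Acadm and Cpt1c to the genes above, and in 16.3% of all 32851 promoters. The CTCF core was in 2 of 8 and in 2.43% of all. The full direct repeat (AGGTCA, any 1 base, AGGTCA), which contains the core site, was in 0 of 8 and in 0.0396% of all, and TCAAGGTCA, which contains it too, was in 0 of 8 and in 0.423% of all. These matches are letters in a window and no binding was measured.

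Across WT tissues the genes fell into different patterns, with most of the pathway high in liver, kidney and muscle and low in spleen and brain, while Cpt1c and Pdk4 each peaked in a single tissue. For each gene the 5 tissues were put in order of WT level and each neighbouring pair was tested by edgeR's quasi-likelihood test in a fit of the 15 WT libraries, with adjustment over all 22933 genes tested. Of 36 such pairs 27 passed an adjusted p of 0.05. Between 54.1% (kidney against liver) and 79.8% (brain against spleen) of all genes passed for a pair of tissues: the share was 71.4% for brain and kidney, 73.2% for brain and liver, 72.3% for brain and muscle, 64.4% for kidney and muscle, 75.5% for kidney and spleen, 64.2% for liver and muscle, 72.9% for liver and spleen and 75.2% for muscle and spleen. In whole tissue, fewer cells of a type and less RNA per cell cannot be told apart. The order also rests on the scaling, since TMM raised liver by 0.998 and muscle by 1.17 on the log2 scale against kidney, compared with scaling by total counts. The 20 highest genes took 29.3% of counts in liver and 39.3% in muscle, against 15.9% in kidney.

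**Figure D1:**
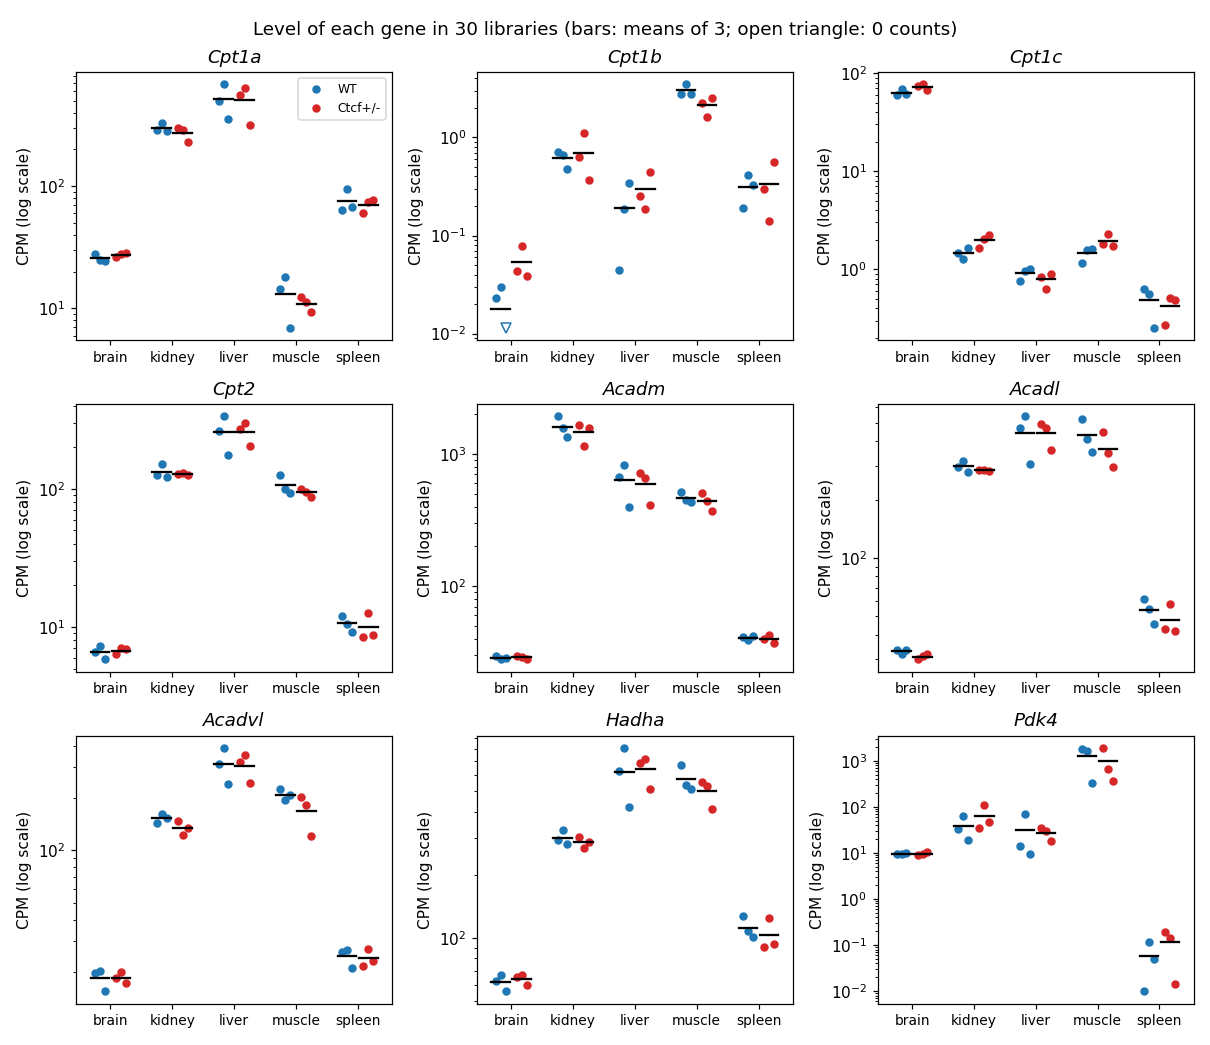
Level of each of the 9 genes (CPM, log scale) in the 3 WT and 3 Ctcf+/- libraries of each tissue. Points are libraries, bars are means of 3 and the open triangle marks a library with 0 counts. Cpt1c stands apart in brain and Pdk4 in muscle, and the points of the 2 genotypes overlap in nearly every pair.

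Cpt1a, the liver form of the enzyme that controls entry of fatty acids into mitochondria, was highest in liver. The WT liver libraries had 503, 686 and 357 CPM (515 ± 165) and the WT kidney libraries 288, 329 and 284 CPM (300.4 ± 24.9). Spleen followed at 75.4 ± 17.1, brain at 25.7 ± 1.85 and muscle at 13.2 ± 5.68 CPM. All 4 steps passed, with liver 1.83-fold above kidney (adjusted p = 0.0188) and brain 1.81-fold above muscle (adjusted p = 0.0153). Under scaling by total counts the log2 step from kidney to liver turned to -0.15 (adjusted p = 0.646), and with TMM its call was lost without WT kidney library 1 or 3 or WT liver library 2 (0.83, 0.83 and 0.62 on the log2 scale). The step from muscle to brain lost its call without WT muscle library 3 (0.56).

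Cpt1b, the muscle form, had few counts in every tissue. The WT muscle libraries held 182, 224 and 161 counts, which is 2.78, 3.504 and 2.78 CPM (3.02 ± 0.420), and kidney held 0.616 ± 0.126, spleen 0.312 ± 0.115 and liver 0.193 ± 0.151 CPM. WT brain held 2, 3 and 0 counts, at or under the 3 counts that a count of 0 allows in a library. Muscle was 5.62-fold above kidney (adjusted p = 0.000192), kidney and spleen did not pass (adjusted p = 0.0812), though they did without WT liver library 1 or 3 (0.0381 and 0.0452), and spleen and liver overlapped. Chkb, which shares its exons, was at 35.2 ± 6.32 CPM in WT muscle.

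Cpt1c, a form known from neurons that sits in the endoplasmic reticulum and has little catalytic activity, had 60.4, 68.6 and 60.8 CPM in the WT brain libraries (63.3 ± 4.599). Every other tissue lay below 2 CPM in WT: kidney at 1.46 ± 0.187, muscle at 1.45 ± 0.256, liver at 0.907 ± 0.124 and spleen at 0.484 ± 0.203. Brain was 46.0-fold above kidney (adjusted p = 3.5e-10), and kidney and muscle overlapped (adjusted p = 0.523), in an order that turned with the scaling. In the fit kidney lay below muscle by -0.19 on the log2 scale, against the order of their means. Muscle was 1.72-fold above liver (adjusted p = 0.0201), a call lost without WT kidney library 2, liver library 1, or muscle library 2 or 3 (0.65 to 0.72 on the log2 scale). Liver was 1.95-fold above spleen (adjusted p = 0.00627), which turned to -0.18 under total counts. Per kb of exon, the scale on which genes can be compared, WT brain had 11.3 ± 0.821 CPM of Cpt1c and 5.98 ± 0.429 of Cpt1a. The ratio of Cpt1c to Cpt1a per length within a library was 1.90 ± 0.220 in WT and 2.04 ± 0.186 in Ctcf+/- brain, while it was 0.103 ± 0.0662 in WT muscle, 0.00377 ± 0.000741 in kidney, 0.00146 ± 0.000589 in liver and 0.00502 ± 0.00240 in spleen.

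Cpt2, which frees the acyl-CoA inside the mitochondrion, was at 262, 338 and 175 CPM in WT liver (258 ± 81.7), 133 ± 15.9 in kidney, 106 ± 17.5 in muscle, 10.6 ± 1.41 in spleen and 6.59 ± 0.763 in brain. Liver was 2.07-fold above kidney (adjusted p = 0.000437), a step of 0.03 on the log2 scale under total counts, and kidney and muscle overlapped (adjusted p = 0.616). The step from muscle to spleen was 11.04-fold (adjusted p = 2.11e-09).

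Among the acyl-CoA dehydrogenases, Acadm (medium chains) peaked in kidney. The WT kidney libraries had 1945, 1564 and 1336 CPM (1615 ± 308), all above the WT liver libraries with 667, 831 and 401 CPM (633 ± 217). Kidney was 2.39-fold above liver (adjusted p = 0.000184), liver and muscle (466 ± 45.7) overlapped, and spleen (40.8 ± 1.70) and brain (28.6 ± 0.814) differed 1.40-fold with an adjusted p of 0.0516, under the threshold without WT liver library 2 or 3 (0.0375 and 0.0144). Acadl (long chains) stood at 440.3 ± 121 CPM in WT liver, 430 ± 87.0 in muscle, 297 ± 18.8 in kidney, 53.5 ± 7.93 in spleen and 32.8 ± 1.08 in brain. Liver and muscle overlapped, with liver below muscle in the fit (-0.068 on the log2 scale), against the order of their means. Muscle was 1.66-fold above kidney (adjusted p = 0.00399), a step that turned to -0.43 under total counts (adjusted p = 0.0227). Acadvl (very long chains) was at 316 ± 73.5 CPM in WT liver, 209 ± 14.8 in muscle, 153 ± 9.05 in kidney, 24.7 ± 3.08 in spleen and 18.5 ± 2.61 in brain, and all 4 steps passed. The smallest, from brain to spleen (1.31-fold, adjusted p = 0.0379), lost its call on leaving out 10 of the 15 WT libraries in turn (0.27 to 0.41 on the log2 scale), and that from muscle to liver (1.40-fold, adjusted p = 0.0154) without WT liver library 2 or WT muscle library 2 (0.33 and 0.43). Its step from kidney to muscle, 1.57-fold, turned to -0.51 under total counts (adjusted p = 0.00259).

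Hadha, the alpha subunit of the trifunctional protein, had 624, 809 and 420.1 CPM in WT liver (617 ± 194) and 667, 539 and 512 CPM in WT muscle (572 ± 82.6), which overlapped. Kidney was at 300.01 ± 25.0, spleen at 112 ± 13.4 and brain at 61.5 ± 5.50 CPM. Muscle was 2.19-fold above kidney (adjusted p = 0.000154), which became -0.03 on the log2 scale under total counts.

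Pdk4 had the widest range of the 9. The WT muscle libraries had 1762, 1661 and 321 CPM (1248 ± 805), kidney 33.1, 62.2 and 18.7 CPM (38.0 ± 22.2), liver 13.96, 70.8 and 9.63 CPM (31.4 ± 34.1) and brain 9.43, 9.28 and 10.002 CPM (9.57 ± 0.379). Spleen held 1, 14 and 7 counts (0.0578 ± 0.0526 CPM). Every muscle library was above every other library, 37.6-fold over kidney in the fit (adjusted p = 6.35e-05), whereas kidney and liver overlapped (adjusted p = 0.846). Liver and brain passed (adjusted p = 0.0459) although their libraries overlapped, and this call was lost with DESeq2 size factors (adjusted p = 0.0562), under total counts (adjusted p = 0.499) and on leaving out 8 of the 15 WT libraries in turn, most without WT liver library 2 (0.32 on the log2 scale, adjusted p = 0.665).

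Per kb of exon the leading gene changed with the tissue, with Acadvl and Cpt1b left out for their shared exons. In WT brain Acadl led with 16.4 ± 0.537 CPM per kb, in kidney Acadm with 413 ± 78.6, in liver Acadl with 219.6 ± 60.1, in muscle Pdk4 with 355 ± 229 and in spleen Acadl with 26.7 ± 3.95. In muscle Acadl (214 ± 43.4) and Acadm (119 ± 11.7) followed Pdk4, with Acadvl left out. The Pdk4 libraries ranged widely enough that 1 of 3 lay below all 3 of Acadl. In liver Acadm (162 ± 55.5) and Cpt1a (120 ± 38.3) followed Acadl, with Acadvl again left out. Over its unshared exon length alone Acadvl stood at 206 ± 47.9 CPM per kb in liver and 136 ± 9.62 in muscle, in both tissues between Acadl and Acadm.

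**Figure D2:**
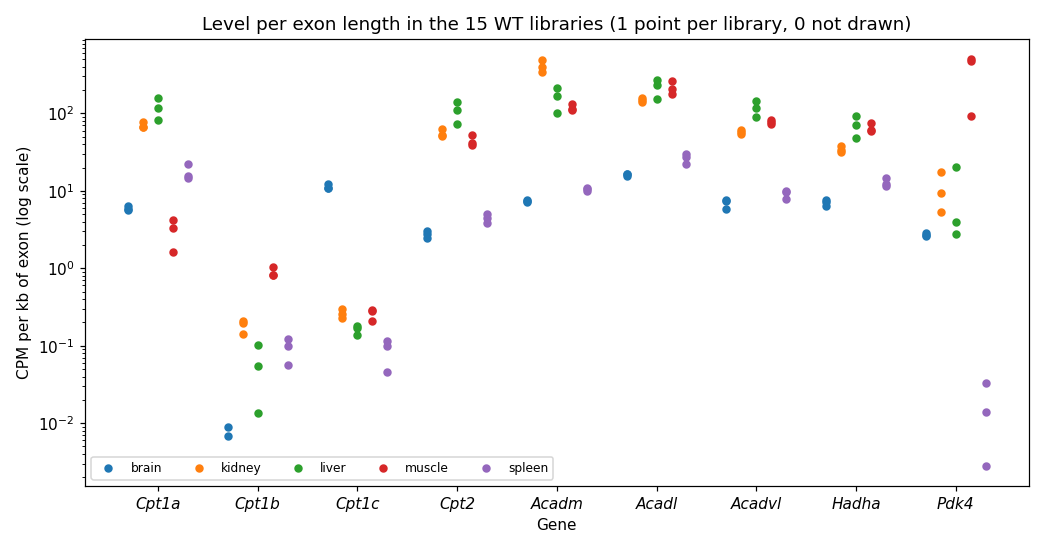
Level per kb of exon (CPM per kb, log scale) of the 9 genes in the 15 WT libraries, with 1 point per library and a colour per tissue. Cpt1c is the only one of the 9 with its highest points in brain, where it lies above Cpt1a, and Pdk4 runs from spleen with few counts to muscle at 355 CPM per kb on average. Cpt1b and Acadvl points are too low because of shared exons.

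Heterozygous loss of Ctcf was compared with WT in each tissue by edgeR's quasi-likelihood test, with Benjamini-Hochberg adjustment over all genes tested. Of the 9 genes 0 passed an adjusted p of 0.05 in any tissue: 0 of 8 in brain (0.0157% of all genes passed), 0 of 9 in kidney (0.0211%), 0 of 9 in liver (0.0193%), 0 of 9 in muscle (0.0249%) and 0 of 9 in spleen (0.242%). Cpt1b had too few counts to be tested in brain. At an unadjusted p under 0.05 there was 1 of 44 effects by edgeR, Acadl in brain, while of all genes 2.96% (brain), 6.44% (kidney), 4.56% (liver), 6.45% (muscle) and 3.52% (spleen) reached that level. DESeq2 and limma-voom passed 0 of the 9 as well. A fit of all 30 libraries passed 0 of 9 for an effect that differed between tissues (0.758% of 24262 genes passed, smallest unadjusted p of the 9 = 0.191) and 0 of 9 for an effect shared by tissues (0.194%, smallest unadjusted p = 0.106). Those last fits take the libraries as independent, although the 5 tissues came from 3 mice of each genotype.

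**Figure D3:**
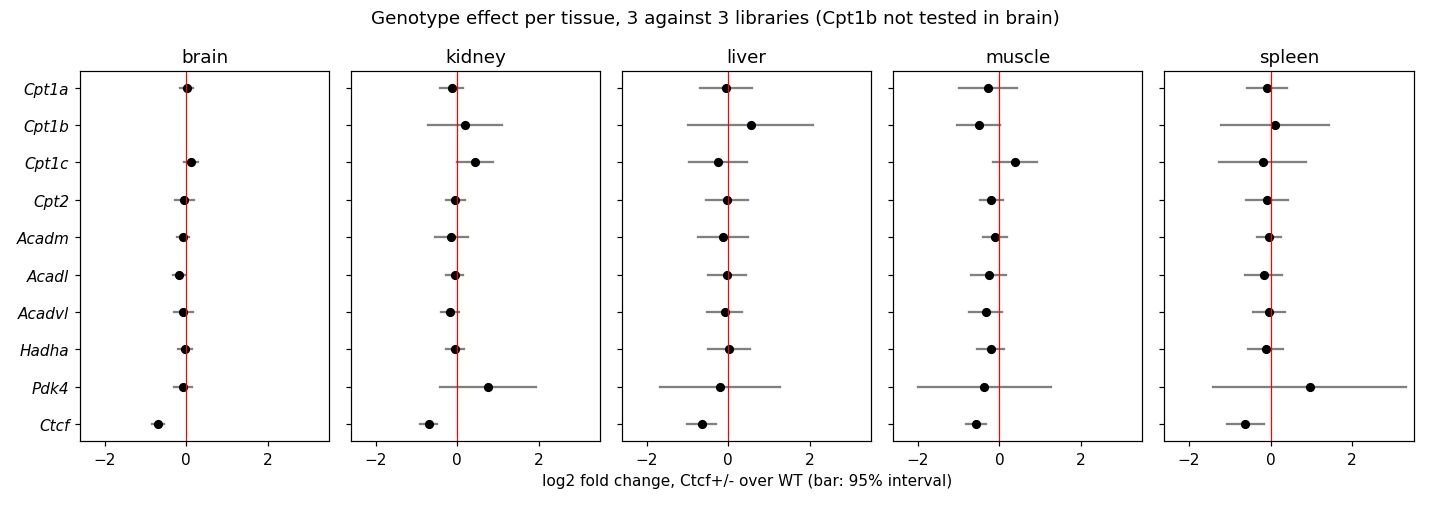
Log2 fold change of Ctcf+/- over WT (points) with its 95% interval (bars) for the 9 genes and Ctcf in each tissue, from 3 libraries against 3. Intervals are narrow in brain and wide for Pdk4 outside brain, and of the 9 genes only the interval of Acadl in brain leaves out 0.

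By edgeR the lowest adjusted p of the 44 effects was 0.777, for Cpt1b in muscle, while Acadl in brain had the smallest unadjusted p. On the scaling used for levels, the WT libraries had 33.5, 31.6 and 33.4 CPM (32.8 ± 1.08) and the Ctcf+/- libraries 29.7, 31.1 and 31.6 CPM (30.8 ± 0.973), so that the highest heterozygous value met the lowest WT value. Scaled within brain alone the groups did not overlap, and the log2 fold change was -0.17 with an SE of 0.06 (unadjusted p = 0.0277, adjusted p = 1.0). Groups failed to overlap for 1 of 8 genes in brain (8.07% of all genes tested), 0 of 9 in kidney (11.4%), 0 of 9 in liver (9%), 2 of 9 in muscle (12%) and 0 of 9 in spleen (6.59%), shares that for the 9 genes rest on 1 or 2 genes.

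The pair in muscle was Cpt1b and Cpt1c. Cpt1b had 2.78, 3.504 and 2.78 CPM in WT and 2.25, 1.63 and 2.55 CPM in Ctcf+/- muscle, with a log2 fold change and SE of -0.51 and 0.23 (adjusted p = 0.777). Chkb, with which it shares most exon bases, had 42.0, 34.0 and 29.6 CPM in WT and 31.9, 27.5 and 27.2 CPM in Ctcf+/- muscle, where the groups overlapped. Cpt1c had 1.16, 1.58 and 1.62 CPM in WT and 1.82, 2.26 and 1.72 CPM in Ctcf+/- muscle, with a log2 fold change and SE of 0.39 and 0.23 (adjusted p = 0.878). Its kidney libraries had 1.45, 1.28 and 1.65 CPM in WT and 1.65, 2.03 and 2.22 CPM in Ctcf+/-, with a log2 fold change and SE of 0.43 and 0.19 (adjusted p = 0.789). In brain, where it is abundant, Cpt1c had 60.4, 68.6 and 60.8 CPM in WT and 73.7, 77.2 and 67.3 CPM in Ctcf+/-, with a log2 fold change and SE of 0.12 and 0.07 (adjusted p = 1.0). Of these brain libraries 1 WT value lay above the lowest heterozygous value.

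Acadvl was at 144, 162 and 152 CPM in WT and 148, 122 and 134 CPM in Ctcf+/- kidney (log2 fold change -0.18, SE 0.09, adjusted p = 0.869), and at 224, 194 and 209 CPM in WT and 201.5, 183 and 121 CPM in Ctcf+/- muscle (log2 fold change -0.34, SE 0.17, adjusted p = 0.853). In both tissues the groups overlapped. Across the 9 genes the median log2 fold change was -0.26 in muscle and between -0.09 and -0.06 in the other tissues, beside medians over all genes between -0.01 and 0.00. In muscle 1 of 9 genes had a positive value, against 48.4% of all genes, and 0 of the 9 passed. The slow or oxidative fibre markers summed to between 3264 and 8633 CPM in WT and between 1665 and 6043 CPM in Ctcf+/- muscle, which overlapped, and their part in the result was not tested. The 95% intervals give the range of effect left by the data. In brain they lay within -0.32 and 0.29 for all 8 genes tested. In liver the interval of Hadha ran from -0.49 to 0.52 and that of Cpt1a from -0.70 to 0.57, on the log2 scale.

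Pdk4 was the least certain of the 9. In muscle the Ctcf+/- libraries had 1917, 661 and 365 CPM (981 ± 824) beside the 1762, 1661 and 321 CPM of WT, a log2 fold change of -0.37 (SE 0.71) with a 95% interval from -2.00 to 1.26, and 0.03 without Ctcf+/- library 3. In kidney they had 34.0, 110.2 and 45.8 CPM (63.3 ± 40.98) beside 33.1, 62.2 and 18.7 CPM, a log2 fold change of 0.75 (SE 0.51) with an interval from -0.42 to 1.91, which ran from 0.07 without Ctcf+/- library 2 to 1.30 without WT library 2. In liver they had 34.8, 29.7 and 18.4 CPM (27.6 ± 8.39) beside 13.96, 70.8 and 9.63 CPM, a log2 fold change of -0.20 (SE 0.64), which became 1.17 without WT library 2 (adjusted p = 0.590). Values within each genotype thus spanned more than the distance between genotypes in all 3 tissues. In brain Pdk4 was steady, at 8.84, 9.32 and 10.5 CPM in Ctcf+/- (9.56 ± 0.863).

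Spread between libraries of the same group was then described as the SD of log2 CPM about the group means, over 6 libraries of a tissue. For Pdk4 it was 0.874 in kidney, 1.13 in liver and 1.31 in muscle, at percentiles 97.6, 98.2 and 99.1 of all genes tested there, and 0.0989 in brain, at percentile 28.0. Without WT liver library 2 the liver value was 0.447. Its spread of 1.22 in spleen comes from libraries with 1 to 28 counts. The median of the 9 genes was 0.398 in liver beside 0.248 over all genes, and 0.271 beside 0.218 in muscle. It was 0.1004 beside 0.1498 in brain, 0.168 beside 0.183 in kidney and 0.260 beside 0.351 in spleen. The median of the 9 thus lay above that of all genes in liver and muscle and below it in the other 3 tissues, which is a description without a test. All genes tested span all levels, and the place of a gene changes among genes of like level. Against genes within 2-fold of its level, Cpt1a in kidney moved from percentile 45.3 to 65.2 and Cpt1c from 54.7 to 35.2. With the libraries numbered 3 left out, a choice made after the data were seen, the median of the 9 was 0.197 in liver and 0.182 in muscle. The medians over all genes were not computed for that choice, so those given above are no like reference.

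In liver 7 of the 9 genes shared their lowest library in both genotypes and their highest library in WT. Library 3 was the lowest of its group in both genotypes for Cpt1a, Cpt2, Acadm, Acadl, Acadvl, Hadha and Pdk4, where 28.1% of all genes had library 3 lowest in both. Hadha, for example, had 624, 809 and 420.1 CPM in WT and 686, 714 and 511 CPM in Ctcf+/- liver, and Acadm had 667, 831 and 401 CPM in WT and 713, 657 and 409 CPM in Ctcf+/-. WT library 2 was the highest of its group for the same 7 genes, and for 37.6% of all genes. Among the Ctcf+/- libraries the highest differed between these genes. It was library 2 for Cpt1a, Cpt2, Acadvl and Hadha (27.3% of all genes) and library 1 for Acadm, Acadl and Pdk4 (39.5%). Cpt1b and Cpt1c, with 2 to 46 counts a library, were highest in library 3 of both groups, as were 13.7% of all genes. Hepatocyte markers, with 0 of 7 at 0, summed to 267402, 314833 and 209399 CPM in WT liver, highest in library 2 and lowest in library 3 as well, and to 233318, 256068 and 247127 CPM in Ctcf+/- liver, where library 3 was not the lowest. WT library 3 also held 38.2 CPM of 5 oligodendrocyte markers against 6.94 CPM or less in the other 5 liver libraries, and 59.6 CPM of 6 neuron markers against 25.8 CPM or less. Their part in the result was not tested. The pattern was chosen for description after the values were seen, and the number 3 is only a name in the labels.

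**Figure D4:**
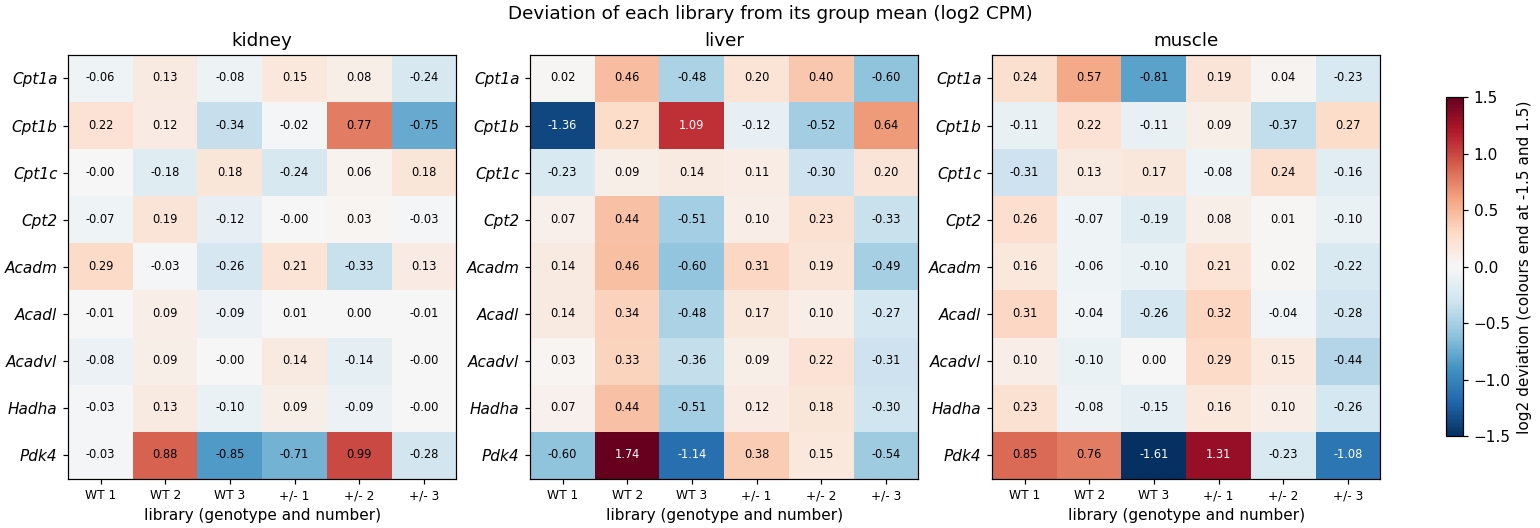
Deviation of each library from the mean of its group (log2 CPM) for the 9 genes in kidney, liver and muscle, with the value written in each cell and colours ending at 1.5 in either direction. In liver 7 of 9 genes are low in library 3 of both genotypes and high in WT library 2, and Pdk4 has the strongest colours in all 3 tissues.

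In muscle, library 3 was the lowest of its group in both genotypes for 6 of the 9 genes (Cpt1a, Cpt2, Acadm, Acadl, Hadha and Pdk4), as it was for 19.2% of all genes. Library 1 was the highest in both for 6 of 9 (Cpt2, Acadm, Acadl, Acadvl, Hadha and Pdk4), as it was for 11.1% of all genes. The size of these shifts differed between genes. Acadm had 519, 445 and 435 CPM in WT and 503, 442 and 373 CPM in Ctcf+/-, while Cpt1a had 14.4, 18.1 and 6.96 CPM in WT and 12.4, 11.2 and 9.26 CPM in Ctcf+/-. Slow or oxidative fibre markers moved beside them. The 8 genes of that list, with 0 of 8 at 0 in either group, summed to 8627, 8633 and 3264 CPM in WT and 3917, 6043 and 1665 CPM in Ctcf+/- muscle, lowest in library 3 of both, and their part in the result was not tested. In kidney, library 3 was the lowest in both genotypes for 4 of 9 genes (15.2% of all genes), in brain for 2 of 8 (29.5%) and in spleen for 1 of 9 (12.5%).

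Other genes of the pathway were read from lists chosen by function. Of 21 further genes of fatty acid oxidation, 0 passed between genotypes in any tissue by edgeR. At an unadjusted p under 0.05 there were 3 of 21 in kidney (6.44% of all genes), 1 in muscle (6.45%) and 0 in each of the other tissues. Their median log2 fold change ran from -0.16 in muscle to -0.01 in brain. In kidney the smallest p belonged to Acsl1, which activates long-chain fatty acids (log2 fold change -0.39, SE 0.13, adjusted p = 0.599), and Crot, which makes carnitine esters in peroxisomes (-0.35, SE 0.12, adjusted p = 0.641). In muscle it belonged to Etfb, an electron carrier subunit (-0.40, SE 0.17, adjusted p = 0.767), whose exons are shared with other genes over 58.2% of their length. Per kb, Acaa2, the last enzyme of the mitochondrial cycle, led the list in WT liver (1029.9 ± 259 CPM per kb), the peroxisomal enzyme Ehhadh led it in kidney (252 ± 42.8) and Eci1, an isomerase for unsaturated chains, in muscle (219 ± 46.2). In liver 16 of the 21 were lowest in library 3 of both genotypes (28.1% of all genes) and in muscle 15 of 21 (19.2%).

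Ketone body genes were read as a list of 7. Oxct1, which starts ketone use outside the liver, led the list per kb in WT kidney (348 ± 26.4 CPM per kb), muscle (157 ± 9.64) and brain (71.3 ± 0.657). Of the 7 genes 0 passed between genotypes in any tissue by edgeR. In liver the smallest p belonged to Oxct1, which is scarce there (log2 fold change -0.41, SE 0.18, adjusted p = 1.0). In liver 5 of the 7 were lowest in library 3 of both genotypes (28.1% of all genes), Acat1, Bdh1 and Slc16a1 among them.

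Genes known to rise with fasting were followed across libraries as a list of 18. In liver 16 were tested and 12 of them were lowest in library 3 of both genotypes, as were 28.1% of all genes. All 16 were above the group mean in WT library 2, with a median deviation of 0.84 on the log2 scale beside 0.03 over all genes. The share of all genes above the group mean was not computed. The median of the list was -0.81 in WT library 3 and -0.37 in Ctcf+/- library 3, beside -0.06 and -0.05 over all genes. Fgf21, the liver hormone of fasting, had 6.17, 22.2 and 1.64 CPM in WT and 15.8, 14.6 and 1.68 CPM in Ctcf+/- liver. Angptl4, a lipase inhibitor and PPAR target, had 66.1, 397 and 36.1 CPM in WT and 166, 150.2 and 140.4 CPM in Ctcf+/- liver, and in muscle 32.3, 9.39 and 2.87 CPM in WT and 21.6, 10.6 and 13.96 CPM in Ctcf+/-. In kidney it had 24.2, 92.1 and 12.9 CPM in WT and 34.9, 95.4 and 41.8 CPM in Ctcf+/-, highest in library 2 of both, where Pdk4 was highest too. The spread of Angptl4 was 1.16 in kidney, 1.27 in liver and 1.28 in muscle.

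Genes known to rise with feeding and lipogenesis, a list of 10, ran the other way in liver. Of the 10, 8 were highest in library 3 of both genotypes (Acly, Acss2, Elovl6, Fasn, Pnpla3, Scd1, Srebf1 and Thrsp), as were 13.7% of all genes. Their median deviation was 0.64 in WT library 3 and 1.20 in Ctcf+/- library 3, and -0.84 and -0.73 in the libraries numbered 1. In muscle the deviations were smaller, with all 10 above the group mean in Ctcf+/- library 3 (median 0.39, beside -0.02 over all genes) and 5 of 10 in WT library 3. In liver library 3 of both genotypes the oxidation and fasting lists thus stood low and the lipogenic list high, whereas in WT liver library 2 the first lists stood high and 7 of 10 lipogenic genes were above the mean as well. Feeding state and hour of collection are not given in the sources used here, and their part in the spread was not tested.

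**Figure D5:**
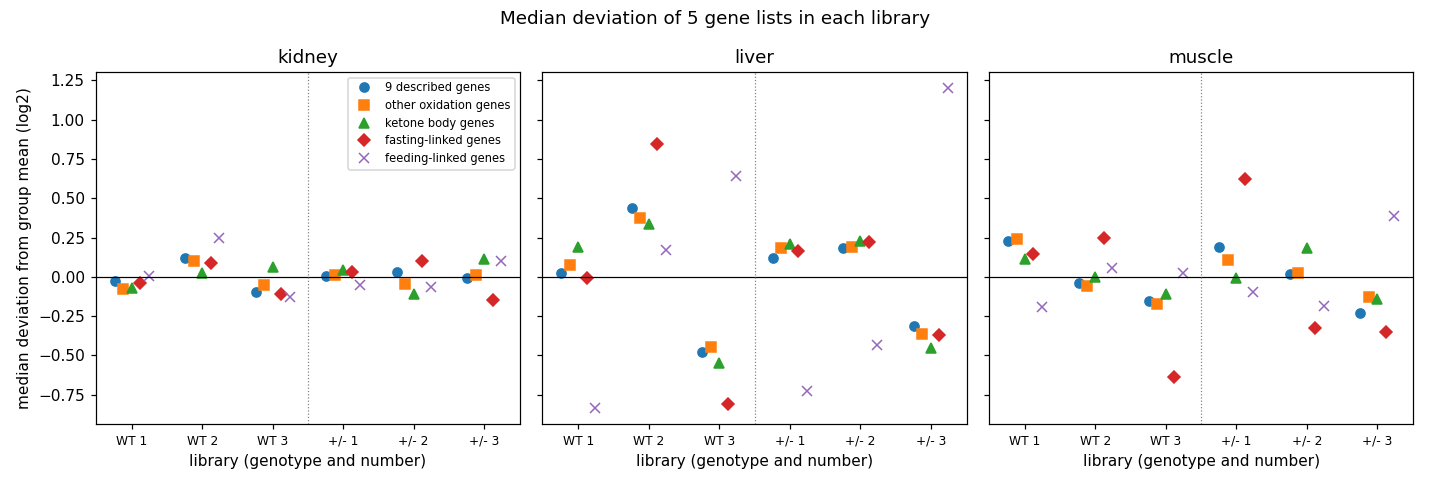
Median deviation from the group mean (log2) in each library of kidney, liver and muscle, for the 9 genes, 21 other oxidation genes, 7 ketone body genes, 18 fasting-linked and 10 feeding-linked genes, as far as tested. In liver the first 4 lists are low in library 3 of both genotypes while the feeding-linked list is at 0.64 and 1.20, and in kidney all medians lie between -0.15 and 0.25.

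Between genotypes the lipogenic list had its largest median in muscle. Of its 10 genes 0 passed an adjusted p of 0.05, 6 had an unadjusted p under 0.05 (6.45% of all genes in muscle) and 9 had a positive value, with a median log2 fold change of 0.52 beside -0.01 over all genes. Fasn, the fatty acid synthase, stood 1.78 higher in Ctcf+/- on the log2 scale (SE 0.28, adjusted p = 0.228), Scd1, a desaturase, 1.68 (SE 0.28, adjusted p = 0.229), Thrsp 1.19 (SE 0.18, adjusted p = 0.228) and Elovl6, an elongase, 1.96 (SE 0.49, adjusted p = 0.404). Acaca, from the list of 18 fuel regulators, makes the malonyl-CoA that inhibits CPT1 and had 0.73 (SE 0.16, adjusted p = 0.332). Adipocyte markers moved beside them: the 8 genes, with 0 of 8 at 0, summed to 546, 446 and 291 CPM in WT and 1157, 627 and 879 CPM in Ctcf+/- muscle, with no overlap, and their part in the result was not tested. By DESeq2 Fasn, Scd1, Thrsp and Acaca passed in muscle (adjusted p = 9.67e-08, 3.97e-07, 4.31e-06 and 0.00969), and by limma-voom Fasn, Scd1 and Thrsp did not (0.223 for each).

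Of the 18 fasting-linked genes 15 were tested in spleen, where 1 passed between genotypes by edgeR (0.242% of all genes), and 0 passed elsewhere. At an unadjusted p under 0.05 there were 5 of 15 in spleen (3.52% of all genes) and 4 of 14 in muscle (6.45%). Kidney had 3 of 17 (6.44%), brain 1 of 12 (2.96%) and liver 0 of 16 (4.56%). The gene that passed in spleen was Tat, a tyrosine aminotransferase of hepatocytes. Tat held 81, 76 and 89 counts in WT and 0 in every Ctcf+/- library (adjusted p = 0.0290). The call was lost on leaving out any of the spleen libraries but Ctcf+/- library 2 (adjusted p between 0.0707 and 0.253). The hepatocyte markers, with none at 0 in all WT libraries and 1 of 7 at 0 in all Ctcf+/- libraries, summed to between 23.0 and 29.4 CPM in WT and between 0.0745 and 0.266 CPM in Ctcf+/- spleen. Their part in the result was not tested. In brain Acot2, a mitochondrial thioesterase, had the smallest p of the list (log2 fold change -0.57, SE 0.12, adjusted p = 0.860 by edgeR). By DESeq2 Acot2 in brain (adjusted p = 0.0373) and Igfbp1 in spleen (adjusted p = 0.0300) passed as well. Of the 18 fuel regulators, which include Ppara, Ppargc1a and the other pyruvate dehydrogenase kinases, 0 passed in any tissue by edgeR, while by DESeq2 Acaca passed in muscle, with an adjusted p of 0.00969.

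Similarity of pattern was described by Pearson's r of log2 CPM over the 30 libraries, which share 5 tissues, among 13117 genes at 10 CPM or more in some tissue. Cpt2 was most like Ech1 (r = 0.998), Etfa (0.993) and Trap1 (0.991). Acadl was most like Etfa (0.991), Acadvl (0.988) and Eci1 (0.988), and Hadha like Eci1 (0.992), Slc25a20 (0.989), which carries acylcarnitines across the inner membrane, and Twnk (0.985). Acadvl was most like Bet1 (0.991), Cpt2 (0.988) and Acadl (0.988), Acadm like Gtpbp10 (0.988), Mrps35 (0.980) and Mccc1 (0.972), and Cpt1a like Abcc3 (0.991), Hyi (0.987) and Lipa (0.985). Cpt1c was most like Nlgn2 (0.987), a synaptic adhesion gene, Hcn2 (0.985) and Flywch1 (0.984), Pdk4 like Fbn1 (0.9745), Tead1 (0.973) and Eln (0.972), and Cpt1b, with its few counts, like Cd93 (0.931), Rbms2 (0.928) and Ybx1 (0.926).

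Over deviations from the 10 group means, which leave out tissue and genotype, the genes at 1 CPM or more in every tissue numbered 9332. Acadm was most like Hadhb, the beta subunit of the trifunctional protein (r = 0.919), followed by Hspa4 (0.883), Fitm2 (0.875), Tor3a (0.866) and Hacd3 (0.864). Pdk4 was most like Vcam1 (0.851), Sdc3 (0.823), St13 (0.792), Gab2 (0.791) and Angptl4 (0.786), and Cpt1a like Hsp90aa1 (0.849), Tmem33 (0.848), Hip1r (0.836), Canx (0.828) and Mfhas1 (0.824). Among the 9 genes, Cpt2 and Hadha had the highest r of deviations (0.946), then Acadl and Hadha (0.903), Acadvl and Hadha (0.888) and Cpt2 and Acadl (0.883), and Pdk4 had 0.638 with Cpt1a and 0.426 with Acadm. Cpt1b and Cpt1c had values between -0.47 and 0.17 with all others. These correlations cover 30 libraries in 10 groups and are given without a test.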

How the data were processed

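Each tissue had its own deposited table of raw counts, fragments per gene over exons of Ensembl release 86 of GRCm38, from featureCounts 1.5.0-p3 without regard to strand, per the file headers. The alignments came from IRFinder, per the file headers, and STAR, FastQC and DESeq2 are named in the submitters' processing notes. Library totals of 49.8 M to 131.6 M set the precision of low genes, and a count of 0 allows up to 3 counts.

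Libraries were grouped by the genotype and tissue in the labels. Genotype was tested in each tissue over 6 libraries with edgeR 4.0.16 (R 4.3.3): filterByExpr, TMM, quasi-likelihood test and Benjamini-Hochberg adjustment, with 0.05 as threshold. The 15 WT libraries were fitted together for tissue pairs, and all 30 for effects shared by or differing between tissues. Log2 CPM carried a prior count of 2. Scripts were tested on simulated data. Alternatives used DESeq2 1.42.0, limma 3.58.1, other scalings and filters, a replicate block, and each library left out. Same-numbered libraries of both genotypes deviated together in brain (lowest r = 0.209) and kidney (0.192), above the 0.1 taken as pairing. In brain, WT library 2 and Ctcf+/- library 1, of unlike number, had an r of 0.216, above that lowest value. In kidney the highest r between unlike numbers was -0.042. Any pairing comes from the data, since the labels do not say what a number shares.

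Named genes were the 9 members, Ctcf, the genes of each list that passed in a tissue or otherwise the 2 with the smallest p, those with the highest WT level per length, and Angptl4 and Fgf21 for spread. For likeness they were the 3 (levels) or 5 (deviations) genes with the highest r. Scd1 and Elovl6 in muscle were named after their values were seen. The members and lists were chosen with earlier results of these data known. A few genes of the lists are not reported here by name.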

Additional observations from a re-analysis of the deposited data

How the results depend on the processing

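Of the 9 genes 0 passed between genotypes under any alternative run (393 values, lowest adjusted p 0.311, for Pdk4 in kidney with the replicate block) or on leaving out any library (264 values, lowest 0.386). The sign changed in 15 and 39 of these values. The log2 fold change of Pdk4 in liver turned to 0.33 with limma-voom and 0.31 with the replicate block, and ran from -0.62 to 1.17 on leaving out single libraries, as it ran from -1.28 to 0.031 in muscle. Between 24 and 31 of the 36 neighbouring tissue pairs passed, and 21 of the 28 left with at least 10 counts in every library. Total counts turned the log2 step of Cpt1a liver over kidney to -0.15, Cpt1c kidney over muscle from -0.19 to 0.98 and Cpt1c liver over spleen to -0.18. They also turned Acadl liver over muscle from -0.068 to 0.076 and Acadl muscle over kidney to -0.43. Acadvl muscle over kidney turned to -0.51 and Hadha muscle over kidney to -0.034. The fitted steps of -0.19 and -0.068 already ran against the order of mean CPM. Acadl liver over muscle also turned to 0.026 with at least 10 counts in every library, 0.31 in the heterozygous libraries and 0.0089 without the libraries numbered 3, and Hadha liver over muscle to -0.018 with the replicate block. On leaving out single libraries, steps that turned ran from -0.23 to 0.13 for Acadl liver over muscle, -0.22 to 0.21 for Hadha liver over muscle, -0.34 to 1.59 for Pdk4 kidney over liver, and -0.33 to 0.061 for Cpt1c kidney over muscle. The cause was not tested.

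Under the replicate block Ctcf in kidney, and Fasn, Scd1, Thrsp and Elovl6 in muscle, passed (adjusted p = 0.0440, 0.0205, 0.0290, 0.00943 and 0.0109), and Tat in spleen did not (0.435). With a filter of 1 count in 1 library Fasn, Scd1 and Thrsp passed in muscle too (0.00561, 0.00693 and 0.00693). Same-numbered libraries did not deviate together throughout in liver, muscle and spleen (lowest r 0.050, 0.083 and -0.47). Depth limits Cpt1b outside muscle and Pdk4 in spleen.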
